A study of Mus musculus with 14 samples.

Results

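The genes described here encode the subunits of voltage-gated sodium channels, voltage-gated calcium channels, the hyperpolarization-activated HCN channels and the sodium leak channel. They were chosen by gene symbol alone: Scn and a number with a or b, Cacna1a to Cacna1s, Cacna2d1 to Cacna2d4, Cacnb1 to Cacnb4, Cacng1 to Cacng8, the Hcn genes, and Nalcn. This rule selected 44 of the 23523 genes in the expression table: 9 sodium channel alpha genes, 4 sodium channel beta genes, 10 calcium channel alpha1 genes, 4 alpha2delta genes, 4 calcium channel beta genes, 8 gamma genes, 4 HCN genes and Nalcn. The table lists the alpha subunit gene Scn2a under its older symbol Scn2a1, which the rule does not match. Its signal was 304 to 468 in wild-type motoneurons and 441 and 568 in the mutant libraries, and it enters no count below.

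A neuron's pattern of firing depends on these channels. The sodium channel alpha subunit forms the pore that carries the upstroke of the action potential, and the beta subunits set its gating and its place in the membrane. Calcium channels are built from an alpha1 pore with alpha2delta and beta subunits that bring it to the surface and tune it, and they couple firing to transmitter release and gene expression. HCN channels open on hyperpolarization and pass the pacemaker current, Nalcn passes a resting sodium leak, and most gamma genes encode TARPs, the auxiliary subunits of AMPA-type glutamate receptors.

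The study profiled polyadenylated RNA from mouse spinal cells and asked what the microRNA miR-218 does in motoneurons. Of the samples used, 6 are WT motoneurons and 2 are motoneurons lacking miR-218 (218DKO), all carrying the Hb9::gfp reporter and sorted as GFP-positive cells at E12.5. Wild-type interneurons of the same stage were sorted for tdTomato, switched on from Rosa26:LSL:tdTomato by En1:cre (V1), Chx10:cre (V2a) or Sim1:cre (V3), with 1 library each. Cre reporters of this kind also keep labelling cells that used the driver earlier. Wild-type embryonic stem cells taken to day 4 with retinoic acid and a sonic hedgehog agonist gave 1 library of Olig2:cre;Rosa26:LSL:tdTomato motoneuron progenitors sorted for tdTomato (mES pMN) and 1 of unsorted neural progenitors (mES NP). A floor plate sample of the series was not used here. Nothing in the labels says that libraries of a group came from separate embryos, so p-values measure the spread between these libraries, which may be technical. In bulk RNA, fewer cells expressing a gene and less of its RNA per cell cannot be told apart.

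Signal, the unit throughout, is the authors' normalized expression value per gene, which behaves as an abundance per transcript length. Depth, estimated from the low values, was lowest in 218DKO replicate 1, at 7.51 M reads, and highest in WT replicate 1, at 28.6 M, so 3 reads on a transcript of 2000 bases correspond to a signal between 0.991 and 3.93. The labelled types carried their markers: Mnx1, the gene behind Hb9, was 2194 to 3995 in the WT libraries and 3863 and 4330 in the mutant, En1 was 851 in V1, Shox2 was 3975 in V2a, Sim1 was 808 in V3 and Olig2 was 1495 in mES pMN. In the unsorted mES NP library Olig2 was 191. The pluripotency gene Pou5f1 was 731 in mES pMN and 956 in mES NP, and at most 1.65 in the neuronal libraries. Mature miR-218 is not measured in these libraries, but its host genes differed: Slit3 was 571 to 694 in WT and 3571 and 3845 in 218DKO, and Slit2 was 1344 to 2219 and then 3894 and 3929. WT replicates 2, 3 and 4 stood apart, with a signal of 10197 to 27943 for Rn45s, the ribosomal RNA precursor, against 644 to 4275 in WT replicates 1, 5 and 6 and 1113 and 1647 in 218DKO. The V2a library held the most blood RNA (summed signal of 5 blood genes 10948, 5.74 to 1299 in the other neuronal libraries). Of the cholinergic genes it held Slc18a3 (1202) and Chat (309) but little Slc5a7 (3.56), with Mnx1 at 7.46. The V3 library held the muscle regulators Myog (49.0) and Myod1 (17.4), which were at most 2.87 in the motoneuron libraries.

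Because the mutant lacks a microRNA, the 3′ untranslated regions of the channel genes were searched for the sites its seed can pair with. Mature miR-218-5p, from RefSeq (GRCm38.p6), is made from copies at chr5:48223966-48223986 and chr11:35616840-35616860, both on the plus strand. Its seed, bases 2 to 8, is in capitals:

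mmu-miR-218-5p: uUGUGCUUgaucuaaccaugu

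On the transcript strand, AAGCACAA was counted as an 8mer site, AAGCACA as a 7mer-m8 site and AGCACAA as a 7mer-A1 site, each counted once as the longest class it matched. Sites are shown for Cacnb4 and Hcn4, which passed the test in 218DKO motoneurons, and for the 5 tested members with an 8mer. Each line is a window of the GENCODE M21 annotation on GRCm38, 5′ to 3′, with the site in capitals:

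Cacnb4, 7mer-m8 at chr2:52434390-52434396 (minus): cttaatttggcAAGCACAgcacagtatct
Cacnb4, 7mer-m8 at chr2:52429294-52429300 (minus): tgaggagaaagAAGCACAtttgttatagc
Cacnb4, 7mer-A1 at chr2:52429279-52429285 (minus): acatttgttatAGCACAAacttacaacaa
Hcn4, 7mer-m8 at chr9:58861645-58861651 (plus): cccagggcttcAAGCACAcctgtcacctc
Scn9a, 8mer at chr2:66481816-66481823 (minus): atgagccatttAAGCACAAaggggctttat
Scn2b, 8mer at chr9:45129333-45129340 (plus): tcatgagaacaAAGCACAAtatttcaggac
Cacna1g, 8mer at chr11:94408647-94408654 (minus): ctcttcttgtaAAGCACAAgccgggggccg
Cacna1i, 8mer at chr15:80397643-80397650 (plus): gtccatcatcaAAGCACAAatgtctccaat
Hcn3, 8mer at chr3:89147258-89147265 (minus): ctgcctttattAAGCACAAgtacttgctgc

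Sites of any class lay in 14 of the 36 tested members with an annotated 3′ untranslated region, and in 2937 of 14713 genes tested. Longer regions hold more sites by length alone: that of Cacnb4 spans 6164 bases and that of Hcn4 2412.

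Most of these genes were present in embryonic motoneurons. In WT motoneurons 34 of 44 had a mean signal of at least 5 and 23 of at least 100, and 6 members stayed below 5 in all 13 libraries. The low ones include channels known from other tissues: the skeletal muscle sodium channel Scn4a (at most 0.697 in the neuronal libraries), the skeletal muscle calcium channel Cacna1s (at most 0.683), and the nociceptor channels Scn10a (at most 0.880) and Scn11a (at most 1.93). Signal within most subfamilies came from 1 or a few genes. Among the 9 selected alpha genes Scn3a, the embryonic sodium channel, held 47.9% ± 2.58 of the summed WT signal (SD, n = 6). Scn9a held 31.5% ± 3.23 and Scn8a, the channel of initial segments and nodes, 13.7% ± 1.62. This sum leaves out Scn2a1, with a WT mean of 360, so these are not shares of all sodium channel pores. Scn3b held 90.7% ± 1.74 of the sodium channel beta signal, Cacnb3 68.4% ± 1.41 of the calcium channel beta signal and Cacng4 51.9% ± 2.24 of the gamma signal. The calcium channel pores were more even, led by the N-type channel Cacna1b (24.4% ± 2.19), the T-type channels Cacna1h (22.7% ± 1.56) and Cacna1g (19.8% ± 2.11), and the R-type channel Cacna1e (12.7% ± 2.21). Hcn3 (46.6% ± 4.58) and Hcn4 (35.6% ± 2.59) led the HCN genes.

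**Figure D1:**
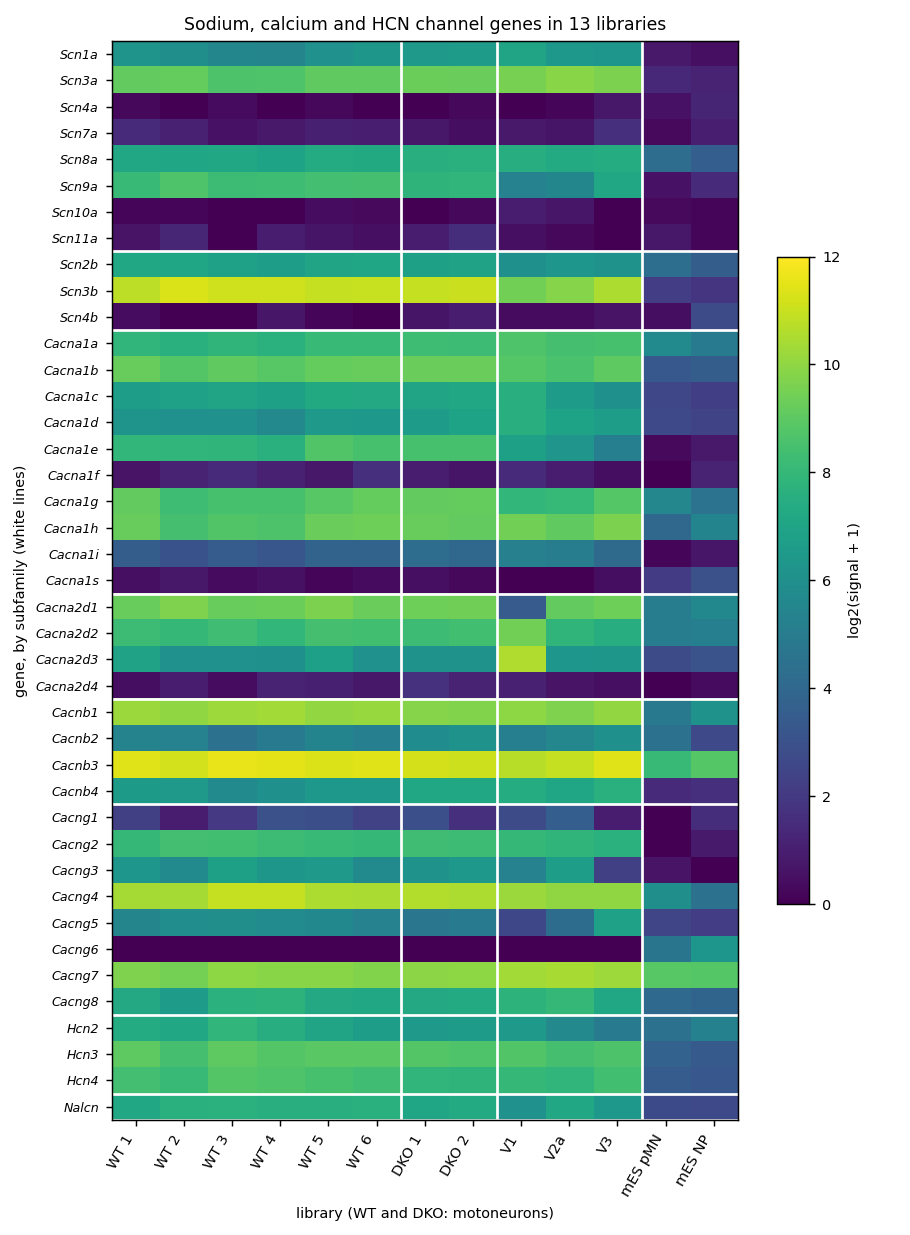
Heat map of log2(signal + 1) for 41 of the channel genes (rows, by subfamily) in the 13 libraries (columns, by group; colour scale from 0 to 12). The 11 neuronal libraries are alike for most genes and the 2 stem cell libraries are dark; the V1 column departs in the alpha2delta rows, where Cacna2d1 is 10.1 and Cacna2d3 is 1543.

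After loss of miR-218, the share of these genes that passed the test was near the share of all genes. In 218DKO against WT motoneurons, 3 of the 37 members tested passed at an adjusted p under 0.05 (limma on log2(signal + 1), Benjamini-Hochberg adjustment over all genes tested), which is 8.11% of them, against a background of 7.99% of all 16260 genes tested. The calcium channel beta gene Cacnb4 rose, and the gamma gene Cacng5 and the pacemaker channel gene Hcn4 fell. The background was 3.22% higher (523 genes) and 4.77% lower (776 genes), and 656 higher and 598 lower with every library scaled to the same total signal. The median log2 difference was 0.05 over the members and 0.00 over all genes. Signals of the 2 groups did not overlap in 16 members (43.2%), against 30.7% of all genes.

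Cacnb4 encodes the beta4 subunit, which escorts calcium channel pores to the membrane, and lies on chromosome 2 (52428320 to 52676831, minus strand, GRCm38). Its signal in WT motoneurons was 51.8 at the lowest, 83.1 at the median and 90.7 at the highest, and it was 145 and 147 in the 218DKO libraries. Both mutant libraries were above every WT library. The log2 difference was 0.94 (SE 0.22, limma adjusted p 0.0273), from a mean of 77.2 ± 15.6 (SD, n = 6) to 146 ± 1.62 (n = 2). The mutant level lay within the range of the interneurons, where Cacnb4 was 138 (V2a), 170 (V1) and 198 (V3). The other beta genes did not pass. Cacnb2, known from the heart, was 22.3 to 41.5 in WT and 57.0 and 70.6 in 218DKO, without overlap (log2 difference 0.88, limma adjusted p 0.0596). Cacnb1, the beta subunit of skeletal muscle that neurons also use, was 1018 to 1285 in WT and 847 and 914 in 218DKO (-0.38, limma adjusted p 0.0575). Cacnb3, by far the most abundant beta gene, overlapped (2283 to 3106 in WT and 2191 and 2416 in 218DKO; limma adjusted p 0.235).

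Cacng5, which encodes a type II TARP and lies on chromosome 11 (107874605 to 107915055, minus strand), had a WT signal of 39.4 at the lowest, 51.3 at the median and 59.9 at the highest. In 218DKO it was 25.6 and 29.2, below every WT library. The mean fell from 50.4 ± 8.5 to 27.4 ± 2.54, a log2 difference of -0.84 (SE 0.22, limma adjusted p 0.0397). Of its chromosome 11 neighbours, Cacng4 overlapped between the groups (1332 to 1986 in WT, 1449 and 1558 in 218DKO) and Cacng1 was at most 6.95. By limma none of the other 6 gamma genes tested passed (0 at an unadjusted p under 0.05), and their largest log2 difference was 0.18, for Cacng7.

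Hcn4, the main pacemaker channel of the sinus node and also a neuronal channel, lies on chromosome 9 (58823412 to 58863175, plus strand). Its WT signal was 278 at the lowest, 352 at the median and 439 at the highest, against 225 and 238 in 218DKO. The mean fell from 359 ± 61.0 to 231 ± 9.37 (log2 difference -0.62, SE 0.17, limma adjusted p 0.0461), without overlap. Hcn2, the other widespread neuronal HCN gene, was 106 to 235 in WT and 86.6 and 99.7 in 218DKO, also without overlap, and missed the threshold (-0.73, limma adjusted p 0.0977). Hcn3 overlapped (354 to 526 and then 418 and 440). The summed signal of the 4 HCN genes was 1007 ± 136 in WT and 779 ± 14.0 in 218DKO, which is given without a test.

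**Figure D2:**
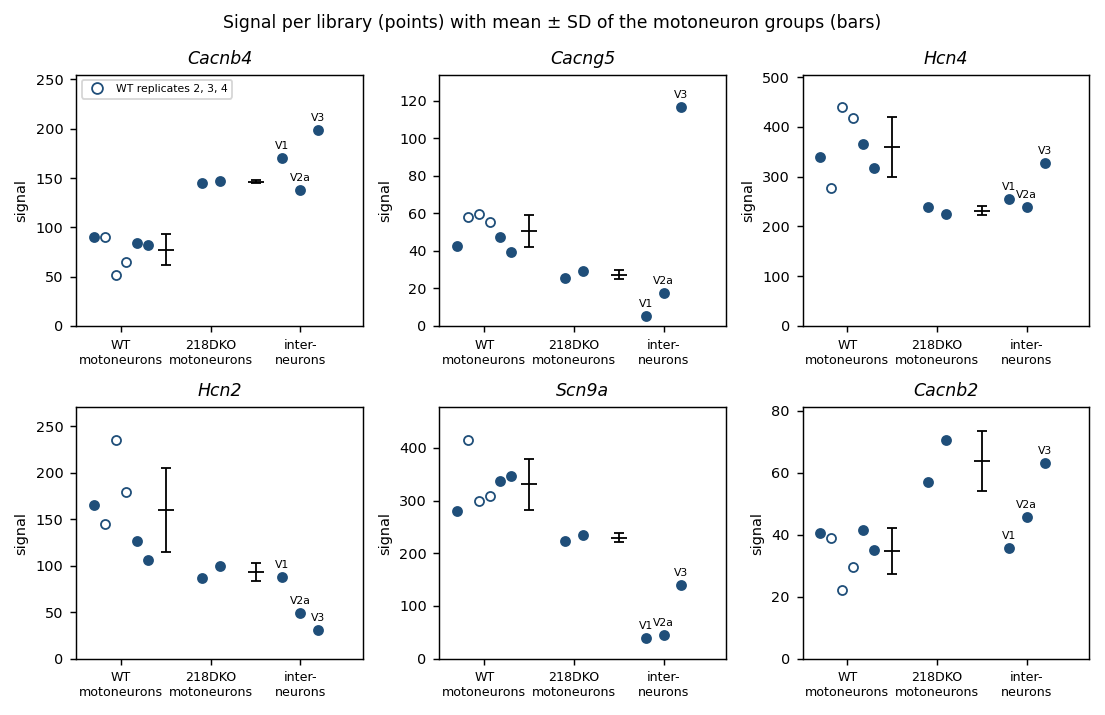
Signal (linear scale) of 6 channel genes in each WT motoneuron, 218DKO motoneuron and interneuron library (points); bars give mean ± SD of the motoneuron groups, and open points are WT replicates 2, 3 and 4. Cacnb4 is at 145 and 147 in 218DKO, above all 6 WT libraries, and Cacng5 and Hcn4 are below all 6; Hcn2, Scn9a and Cacnb2 also separate but did not pass the test.

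These 3 calls rest on few libraries. No member passed with 218DKO replicate 1 or replicate 2 left out (8 and 6 at an unadjusted p under 0.05), when the lone mutant library is assumed to vary like the WT libraries: limma adjusted p was 0.203 and 0.208 for Cacnb4, 0.284 and 0.190 for Cacng5, and 0.241 and 0.293 for Hcn4. Without WT replicate 4 all 3 also missed the threshold, at 0.0508, 0.0722 and 0.0797. Cacng5 was lost as well without WT replicate 3 (0.0652) or 5 (0.0627), and Hcn4 without WT replicate 1 (0.0529), 3 (0.0667), 5 (0.0742) or 6 (0.0561). The log2 differences kept their sign in all 20 alternatives. They lay between 0.69 and 1.11 for Cacnb4, between -1.05 and -0.64 for Cacng5 and between -0.69 and -0.41 for Hcn4. For all 3 genes both 218DKO libraries lay outside the whole WT range. Only the scaling and the replicate block could therefore have reversed a sign. Summed signal of 8 progenitor genes, mostly Vim, was 4543 to 5606 in WT and 2213 and 2655 in 218DKO. Vim itself was 3601 to 5184 in WT and 1809 and 2150 in 218DKO, and the rest of the 8 overlapped between the groups. Summed signal of 6 neuronal genes, mostly Tubb3 and Stmn2, was 60789 to 84104 in WT and 52174 and 52676 in 218DKO. Of these 6, Stmn2 and Map2 overlapped between the groups and the rest were lower in 218DKO. The part of both sums in these differences was not tested.

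No sodium channel alpha or calcium channel alpha1 member passed in the mutant by limma. Of these members, 3 sodium channel alpha genes and 2 calcium channel alpha1 genes had an unadjusted p under 0.05. Among the sodium channel alpha genes, Scn9a (Nav1.7, best known from sensory neurons) had a WT signal of 279 at the lowest, 323 at the median and 415 at the highest, and 223 and 236 in 218DKO. These groups did not overlap, and the log2 difference of -0.51 (SE 0.15) missed the threshold (limma adjusted p 0.0552). Its share of the alpha signal, with Scn2a1 left out, was 31.5% ± 3.23 in WT and 20.2% ± 0.686 in 218DKO. Scn8a was 123 to 165 and then 188 and 196 (0.43, limma adjusted p 0.0829), Scn3a was 405 to 577 and then 603 and 623 (0.29, limma adjusted p 0.256), and Scn1a, the Nav1.1 channel, was 43.1 to 80.9 and then 86.0 and 96.3 (0.60, limma adjusted p 0.165). So in 218DKO 3 of these alpha genes lay above, and Scn9a below, the whole WT range. The groups did not overlap in 30.7% of all 16260 genes tested. Summed alpha signal without Scn2a1 was 1053 ± 126 in WT and 1137 ± 4.25 in 218DKO. The sodium channel beta genes Scn2b and Scn3b overlapped between the groups, with log2 differences of -0.12 and -0.08.

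Among the 9 tested calcium channel pores 8 had a positive log2 difference in 218DKO (median 0.36) and none passed. Over all genes 8158 of 16260 were positive. Cacna1d, an L-type channel that opens at low voltage, was nearest: 49.3 to 89.5 in WT and 99.0 and 125 in 218DKO (0.66, limma adjusted p 0.0924). The P/Q-type channel Cacna1a was 194 to 279 and then 299 and 305 (0.36, limma adjusted p 0.176), and Cacna1b was 440 to 592 and then 604 and 615 (0.20, limma adjusted p 0.349). The WT libraries also differed among themselves in this family. In WT replicates 1, 5 and 6 against 2, 3 and 4, 12 of 37 members did not overlap (32.4%, against 29.4% of 16180 genes), and 7 of the 12 were calcium channel pores, all higher in replicates 1, 5 and 6. Cacna1g was 476 to 578 in replicates 1, 5 and 6, 311 to 365 in replicates 2, 3 and 4, and 558 and 570 in 218DKO. Cacna1h was likewise 583 to 653, then 350 to 430, and 552 and 595 in 218DKO.

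The choice of WT libraries therefore changed which genes passed. Against WT replicates 2, 3 and 4 alone, 9 members were higher (Scn1a, Scn8a, Cacna1a, Cacna1d, Cacna1e, Cacna1g, Cacna1h, Cacnb2 and Cacnb4; background 7.97% of 16083 genes) and 2 were lower (Cacng5 and Hcn2; background 7.27%). Against WT replicates 1, 5 and 6 alone, 2 were higher (Cacnb2 and Cacnb4; background 6.0% of 16421 genes) and 3 were lower (Scn9a, Cacnb1 and Hcn4; background 8.1%). Cacnb4 and Cacnb2 passed against either set: the log2 difference was 1.11 and 0.77 for Cacnb4, and 1.08 and 0.69 for Cacnb2.

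**Figure D3:**
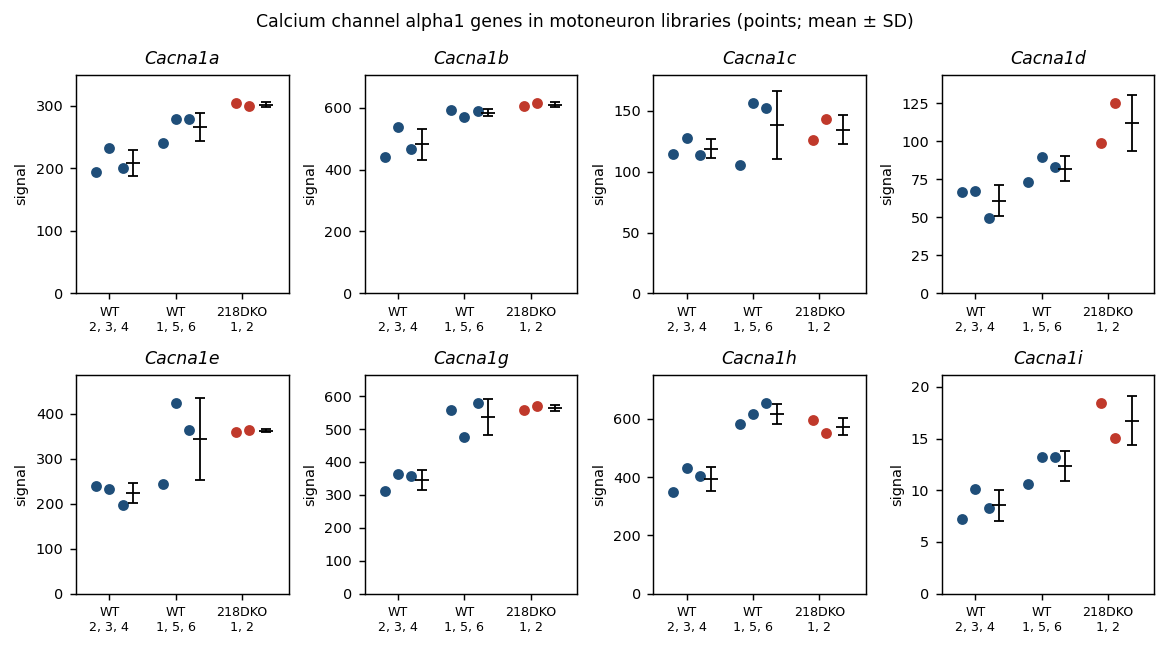
Signal (linear scale) of 8 calcium channel alpha1 genes in WT motoneuron replicates 2, 3 and 4, WT replicates 1, 5 and 6, and 218DKO replicates 1 and 2 (points; bars are mean ± SD). The 218DKO libraries are near WT replicates 1, 5 and 6 for Cacna1g and Cacna1h, and above all 6 WT libraries for Cacna1a, Cacna1b, Cacna1d and Cacna1i.

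The site classes can be set beside the mutant values. Among the 14 tested members with a miR-218 site, 1 was higher (Cacnb4) and 1 lower (Hcn4), with a median log2 difference of 0.36; among the 22 without a site none was higher by limma (3 at an unadjusted p under 0.05) and 1 was lower (Cacng5), with a median of 0.03. Over all genes with a site 293 of 2937 were higher and 79 lower (median 0.16), and over the 11776 without one 181 were higher and 679 lower (median -0.05). Of the 5 members with an 8mer none passed by limma (1 at an unadjusted p under 0.05) and the median was -0.11: Cacna1i was at 0.65 and Cacna1g at 0.39, while Hcn3 (-0.11), Scn2b (-0.12) and Scn9a (-0.51) were negative. Over all 626 genes with an 8mer the median was 0.31. A match is a description of the sequence and not a measured site of binding.

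More of these genes passed between WT motoneurons and interneurons, and so did more of all genes. The test set 6 WT motoneuron libraries against V1, V2a and V3 taken as 3 samples of 1 class, so the spread among the interneurons includes real differences between types. It shares the WT libraries with the mutant comparison, so the 2 sets of differences are not independent. Of 37 members tested, 9 were higher and 6 lower in motoneurons (40.5%), against a background of 32.9% of 16486 genes, 17.7% higher and 15.2% lower. With every library scaled to the same total signal, 2017 genes were higher and 3915 lower in place of 2921 and 2498, the median of all genes moved from -0.04 to -0.22, and 9 members were higher and 8 lower. Groups did not overlap in 14 members (37.8%), against 33.1% of all genes. The median log2 difference was 0.26 over the members and -0.04 over all genes. Summed signal of 6 neuronal genes, mostly Tubb3 and Stmn2, was also higher in WT motoneurons (60789 to 84104) than in interneurons (32019 to 55434). Among them Map2 went the other way (3045 to 5269 in WT, 5469 to 6552 in interneurons), and Elavl3 and Rbfox3 overlapped. The part of this sum in these differences was not tested.

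**Figure D4:**
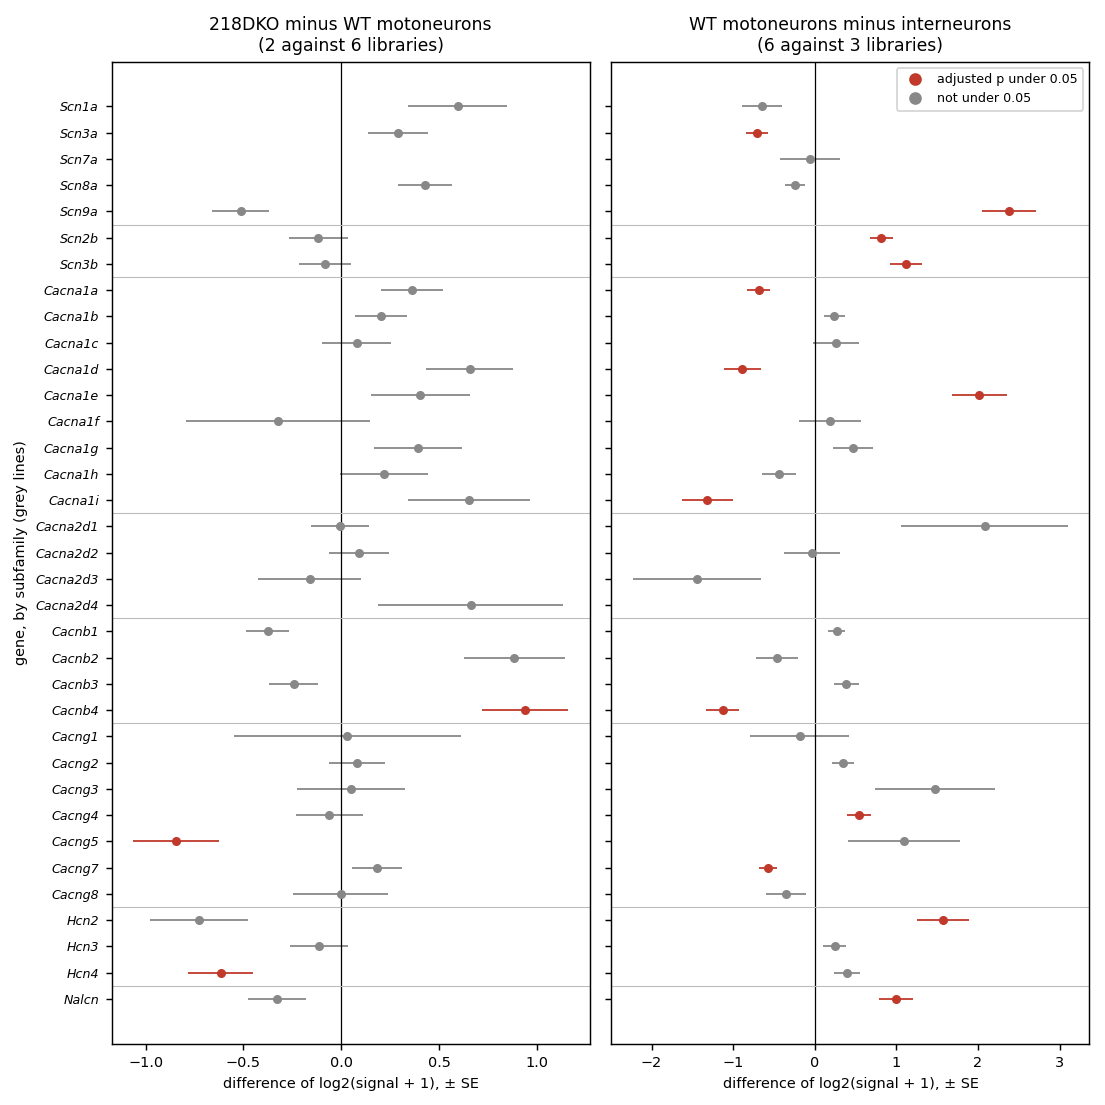
Difference of log2(signal + 1) ± SE for the tested channel genes named in the plot, in 218DKO against WT motoneurons (left) and WT motoneurons against interneurons (right, on a wider axis), with red points at a limma adjusted p under 0.05. On the left Cacnb4, Cacng5 and Hcn4 are red; on the right the red points run from Cacna1i at -1.32 to Scn9a at 2.38.

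The make-up of the sodium channel pore signal, with Scn2a1 left out, differed at a similar total. Scn9a was higher: 279 to 415 in WT against 39.0 in V1, 44.1 in V2a and 139 in V3, a log2 difference of 2.38 (SE 0.33, limma adjusted p 0.000538). Its share of alpha signal in these interneurons was 3.55%, 3.62% and 11.6%. The summed signal of 8 sensory neuron genes was also higher in WT (2132 to 2812) than in the interneurons (278 to 699). Most of the WT sum was Isl1, which motoneurons also express. The sum of the other 7, mostly Ntrk2, overlapped (424 to 539 and 269 to 664). Of these 7, Pou4f1 was 51.3 to 135 in WT and 13.4 to 33.9 in the interneurons. Runx1 was 6.87 to 14.6 and then 0.780 to 3.49. Both were without overlap, and the rest of the 7 overlapped. The part of these genes in the Scn9a difference was not tested. Scn3a was lower, with 405 at the lowest, 540 at the median and 577 at the highest in WT against 754, 789 and 925 in V1, V3 and V2a (-0.71, limma adjusted p 0.0037). The groups did not overlap for Scn9a or for Scn3a. Summed alpha signal without Scn2a1 was 1053 ± 126 in WT and 1171 ± 62.8 in the interneurons (SD, n = 3). Scn2a1 itself was 304 to 468 in WT and 228 to 360 in the interneurons.

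The sodium channel beta genes Scn3b and Scn2b were higher in motoneurons, without overlap. Scn3b, the main one, had a WT median of 2136 and a highest value of 2543, against 707 in V1, 897 in V2a and 1489 in V3 (log2 difference 1.12, limma adjusted p 0.0022). Scn2b was 104 to 143 in WT against 64.1 in V1, 77.1 in V2a and 71.4 in V3 (0.81, limma adjusted p 0.0020). The untested Scn4b was at most 0.883 in the neuronal libraries. Both calls, like those of Scn9a and Scn3a, were made in all 20 alternatives.

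Calcium channel pores moved in both directions. The R-type channel Cacna1e was higher in motoneurons, 197 at the lowest, 242 at the median and 423 at the highest against 112 in V1, 74.7 in V2a and 35.4 in V3 (log2 difference 2.02, SE 0.34, limma adjusted p 0.0015). Cacna1a, the P/Q-type channel that serves release at many adult synapses, was lower, 194 to 279 against 357, 361 and 420 (-0.68, limma adjusted p 0.0048). Cacna1d was lower too, 49.3 to 89.5 against 102, 122 and 182 (-0.89, limma adjusted p 0.0134), and missed the threshold without the V1 library (0.0534). The T-type channel Cacna1i was 7.23 to 13.2 against 16.8, 31.5 and 36.9 (-1.32, limma adjusted p 0.0099). Cacna1b, the leading pore in WT with 440 at the lowest, 554 at the median and 592 at the highest, overlapped with the interneurons at 378, 462 and 516 (0.24, limma adjusted p 0.182).

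Of the auxiliary calcium channel genes, Cacnb4 was lower in motoneurons (log2 difference -1.13, SE 0.21, limma adjusted p 0.0024), with the values given above and no overlap. Cacnb3, the leading beta gene, overlapped: 2283 at the lowest, 2710 at the median and 3106 at the highest in WT against 1672 in V1, 1981 in V2a and 2733 in V3 (0.39, limma adjusted p 0.0681). The TARP genes Cacng4 and Cacng7 changed in opposite directions. Cacng4 was 1332 at the lowest, 1459 at the median and 1986 at the highest in WT against 1185 in V1 and 1026 in both V2a and V3 (0.54, limma adjusted p 0.0196). It missed the threshold without the V2a (0.0700) or the V3 library (0.0610). Cacng7 was 719 to 1007 in WT against 1228, 1305 and 1369 (-0.57, limma adjusted p 0.0034). Cacng4 thus held 51.9% ± 2.24 of the gamma signal in WT and 37.1% ± 2.68 in interneurons, and Cacng7 28.9% ± 2.22 and 44.7% ± 1.18.

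Hcn2 and Nalcn were higher in motoneurons. Hcn2 was 106 at the lowest, 155 at the median and 235 at the highest in WT, against 88.3 in V1, 49.3 in V2a and 31.0 in V3 (log2 difference 1.57, limma adjusted p 0.0042). Hcn3, the leading HCN gene (354 at the lowest, 490.1 at the median and 526 at the highest in WT), overlapped with the interneurons at 350, 398 and 434, and Hcn4 also overlapped (0.39, limma adjusted p 0.0828). Nalcn was 148 at the lowest, 192 at the median and 201 at the highest in WT, above 66.6 in V1, 84.1 in V3 and 142 in V2a (log2 difference 0.995, limma adjusted p 0.0054). With WT replicates 1, 5 and 6 as the only motoneurons, Cacna1d, Cacna1i, Hcn2 and Nalcn missed the threshold (limma adjusted p 0.0525 to 0.0822).

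The alpha2delta genes, targets of the gabapentinoid drugs in the case of Cacna2d1 and Cacna2d2, set the V1 library apart from the other 10 neuronal libraries. Cacna2d1 was 589 at the lowest, 619.5 at the median and 818 at the highest in WT, 647 and 681 in 218DKO, 548 in V2a and 647 in V3. In V1 it was 10.1, about 37 estimated reads and 49.6-fold lower than V2a on the log2(signal + 1) scale. Cacna2d3 was the reverse: 1543 in V1 against 78.8 in V2a, 80.9 in V3, 70.0 in both 218DKO libraries and 63.4 to 118 in WT, which is 18.8-fold above V3. Cacna2d2 was 693 in V1, 231 in V2a, 176 in V3 and 244 to 353 in WT. So V1 held 0.448% of its alpha2delta signal as Cacna2d1, 30.8% as Cacna2d2 and 68.7% as Cacna2d3, where WT motoneurons held 63.6% ± 4.90, 28.6% ± 4.06 and 7.68% ± 2.17. With a single V1 library the type and the library cannot be told apart, and the class test did not call these genes (limma adjusted p 0.136 for Cacna2d1, 0.950 for Cacna2d2 and 0.171 for Cacna2d3).

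**Figure D5:**
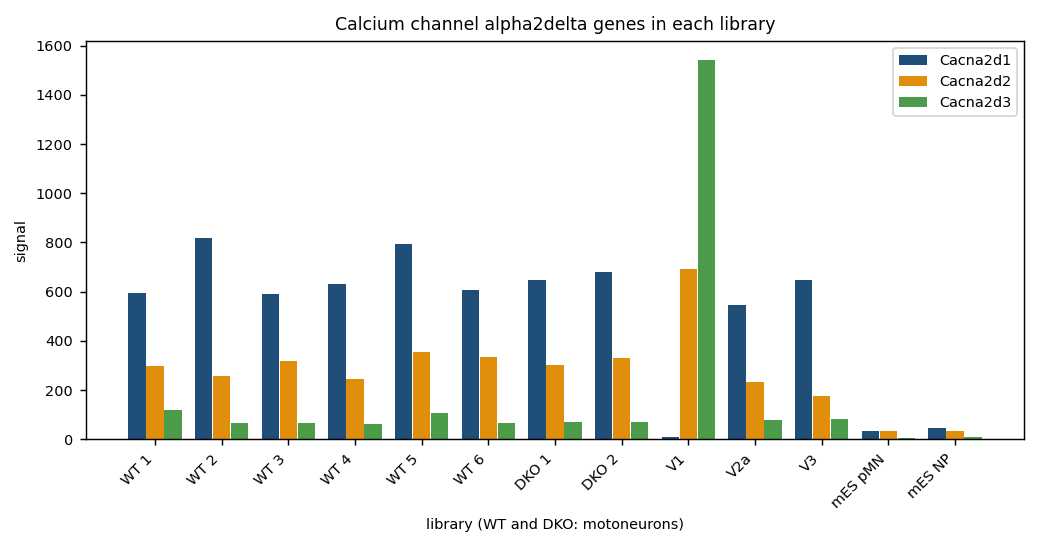
Signal (linear scale from 0) of Cacna2d1, Cacna2d2 and Cacna2d3 in each of the 13 libraries, 1 bar per gene and library. Cacna2d1 is the highest of the 3 in every motoneuron library, V2a and V3; in V1 it is 10.1, and Cacna2d3 is 1543.

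Single interneuron libraries were compared with no test, counting a member where 1 library lay at least 2-fold above or below both of the others on the log2(signal + 1) scale. In V1, 3 members were above (among them Cacna2d3 and Cacna2d2; background 3.94% of 16587 genes) and 2 were below (Cacna2d1 and Cacng5; background 5.86%). In V2a, Cacng3 was above (background 1.72%) and no member was below (background 2.09%). In V3, 3 were above (among them Cacng5 and Scn9a, background 5.5%) and 4 were below (among them Cacng3, Cacng1 and Cacna1e, background 3.06%). Of these, Cacng1 was near the floor, with about 1 estimated read in V3, 6 in V1 and 12 in V2a. In V3 the TARP gene Cacng5 was the highest of the types and Cacng3 the lowest: Cacng5 was 5.09 in V1, 17.7 in V2a and 116 in V3, and Cacng3 was 38.5, 104 and 3.77. The summed signal of 10 skeletal muscle genes was 237 in V3 and 19.8 to 54.1 in the other neuronal libraries, with Scn4a at 0.697 and Cacna1s at 0.372 in V3; its part in the V3 values was not tested.

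In the stem cell libraries most channel genes were low. Of 37 members tested, 33 were at least 2-fold lower in mES pMN than the WT motoneuron mean (89.2%, against a background of 26.4% of 16804 genes), and 31 of 39 in mES NP (79.5%, against 24.1% of 17057 genes). The summed signal of 6 neuronal genes was 1176 in mES pMN and 713 in mES NP. Both libraries also held Pou5f1 (731 and 956), and the part of cells expressing it in these low values was not tested. The neuronal beta subunit Scn3b was 3.50 in mES pMN and 2.52 in mES NP, Scn3a was 1.60 and 1.26, and stargazin, Cacng2, was 0 and 0.836. The TARP gene Cacng7 was 1 exception at 466 and 457, against 719 to 1007 in WT motoneurons. Cacnb3 was among the lower ones in both, at 278 and 460.2 against 2283 to 3106 in WT. Cacng6, a gamma gene of skeletal muscle, was above WT in both: it was listed at 0 in all 11 neuronal libraries and was 24.7 in mES pMN and 78.1 in mES NP. It was the 1 member at least 2-fold above WT in mES pMN (background 28.3%); in mES NP 3 members were above (background 29.5%), among them Cacna1s at 6.89. Summed skeletal muscle signal was 220 in mES pMN and 422 in mES NP, with Myod1 at 0.44 and 0. Between the 2 stem cell libraries, Cacnb2 and Cacng4 were at least 2-fold higher in mES pMN (background 8.32% of 16792 genes), and 6 members were lower (background 16.7%), among them Cacng6, Scn4b, Cacng1, Cacna1h and Cacnb1. Of these, Cacng1 was near the floor, with 0 estimated reads in mES pMN and about 3 in mES NP.

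Transcript values depend on how reads of shared exons were divided, and members were not ranked by them. Those of Cacnb1 differed between the neuronal and the stem cell libraries. Its transcript NM_145121 held 67.7% to 89.7% of the gene's signal in the neuronal libraries, 5.1% in mES pMN and 0% in mES NP. In the stem cells NM_001282977 and NM_001282978 held 39.3% and 55.6% in mES pMN, and 52.4% and 45.8% in mES NP, against at most 2.9% each in any neuronal library. The whole gene was 28.0 and 69.8 there.

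Genes whose products bind, modify or work beside these channels, from a list of 34, moved in part. In 218DKO motoneurons 3 of 32 tested were higher and 3 lower (18.8%, against the background of 7.99%). The ryanodine receptor genes Ryr3 (26.2 ± 7.59 in WT, 68.4 ± 7.12 in 218DKO; limma adjusted p 0.0171) and Ryr2 (36 ± 12 and 78.1 ± 12.7; 0.0447) rose, which encode calcium release channels of the endoplasmic reticulum. Of the fibroblast growth factor homologous factors, which bind sodium channel tails, Fgf12 rose (207 ± 35.1 and 356 ± 49.4; limma adjusted p 0.0185) and Fgf11 fell (567 ± 56.4 and 296 ± 10.7; 0.0023). S100a10, whose product helps bring some channels to the membrane, fell from 4284 ± 816 to 1777 ± 52.8 (limma adjusted p 0.0035), and the alpha2delta-like Cachd1 fell from 409 ± 55.7 to 260.3 ± 16.5 (0.0244). Without 218DKO replicate 1 all 6 missed the threshold (limma adjusted p 0.0611 to 0.201), without 218DKO replicate 2 all but Fgf11 did (0.0575 to 0.324), and Ryr2 also missed it without WT replicate 1, 2, 3 or 4 (0.0535 to 0.0737). Against interneurons 7 were higher and 4 lower in WT motoneurons (34.4%, against 32.9%). S100a10 was 3234 to 5185 in WT, against 39.9 in V1, 66.8 in V2a and 1949 in V3, so the size of its difference depends on V3: the log2 difference was 4.59 (limma adjusted p 0.0045), and 6.32 without V3 (3.97e-07). Given as mean ± SD of the signal in WT motoneurons and then in interneurons, the other higher ones included Stac (86 ± 18.2 and 15.2 ± 10.5), Rrad (27.7 ± 21.1 and 3.07 ± 0.768), Fgf11 (567 ± 56.4 and 147 ± 48.6), Fgf13 (1156 ± 194 and 352 ± 70.6) and Rimbp2 (350 ± 43.3 and 177 ± 64.9). The lower ones included Rem2 (463 ± 150 and 949.6 ± 231).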

How the data were processed

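Polyadenylated RNA was sequenced from 13 mouse libraries used here, with TruSeq v2 kits per the labels' protocols; these kits do not mark strand, so reads of overlapping or antisense genes cannot be told apart. The deposited values are a normalized signal per gene and transcript, which the authors computed on RefSeq models per the file headers; DESeq, bedtools, mm9 and mm10 are named in the submitters' processing notes without a role, and which aligner and counter were used is not given in the sources used here. Upper quartiles nearly match between libraries (227.5 to 233.7). In the low values of genes with 1 transcript, signal times length was near a whole number of reads (within 0.1 of it) in 74.0% to 76.0% of genes, where chance gives 20%; the estimated depths and read numbers come from that and are approximate.

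The channel genes were matched by symbol. Genes whose signal averaged 1 or more in the compared libraries were tested with limma 3.58.1 (R 4.3.3, trended prior variance) on log2(signal + 1), each comparison fitted on its own groups, with Benjamini-Hochberg adjustment over all genes and a threshold of 0.05. Fold changes on this scale understate changes of low genes. The script was tested on simulated data. Single libraries were compared by fold only, with 2-fold as the limit. Members, lists and alternatives were chosen with earlier results of these data known. By rule, members past a threshold and the highest gene of each subfamily are described in full, and partner genes past the threshold are named, at most 8 per comparison. Alternatives changed the pseudocount, filter, scaling, variance prior, groups in the fit, control libraries and replicate block, or left out 1 library. Sites were searched in 3′ untranslated regions of GENCODE M21 transcripts matched by RefSeq accession (43 members) or symbol (1 member); no region was matched for Cacng8. Gene coordinates are from the same annotation on GRCm38. Python 3.11.15 and pandas 2.3.3 were used. Some genes are counted in the totals but are not reported here by name.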

Additional observations from a re-analysis of the deposited data

Results flagged for a closer look

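Of 34 members tested for a WT motoneuron library far from the other 5, 2 stood out, of which 1 is given here, and chance singles out about 1 in 20. Nalcn was 147.7 in WT replicate 1 and 189 to 201 in the others.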

How the results depend on the processing

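The values below are counts of calls unless said otherwise. In 218DKO against WT motoneurons, leaving out 1 library moved all genes higher between 27 and 797, all genes lower between 70 and 1235, members higher between 0 and 1 and members lower between 0 and 4. The lowest counts came without 218DKO replicate 1 (27 higher and 70 lower) and the highest without WT replicate 2, when Scn9a and Cacnb1 joined Cacng5 and Hcn4 as lower; without WT replicate 4 the counts were 331 and 496. All groups in one fit gave 279 higher and 376 lower and no member (7 at an unadjusted p under 0.05), and no trend in the prior variance gave 491 lower, with 0 members higher and 1 lower. No filter on low values and the same total signal each left 0 members lower, and a mean signal of at least 10 gave 2 higher. WT replicates 2, 3 and 4 alone gave 1282 higher and 1170 lower, with 9 members higher, and WT replicates 1, 5 and 6 alone gave 985 and 1330, with 2 members higher. The replicate block gave 120 higher, 94 lower and 0 members in either direction (8 at an unadjusted p under 0.05). WT and 218DKO share the numbers 1 and 2, and the labels give no pairing beyond them. Deviations of same-numbered libraries correlated at -0.046 and 0.013. With 2 mutant libraries these deviations mirror each other, so the correlations cannot show whether libraries were paired.

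In WT motoneurons against interneurons, all genes lower moved to 3915 with the same total signal and 1553 with WT replicates 1, 5 and 6 alone, and ranged from 1483 (without V2a) to 2702 with 1 library left out. No log2 difference of a named gene reversed. Where the groups do not overlap, leaving out a library could not have reversed it. Of the 15 member calls, 9 were made in all 20 alternatives. At 4-fold in place of 2-fold, calls among the members fell from 13 (11 genes) to 6 (6 genes) for the interneuron libraries, and from 8 to 2 between the stem cell libraries. Depth limits the low genes most: Cacng5 rests on about 36 reads in 218DKO replicate 1.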
